A study of Mus musculus with 9 samples.

Results

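Oxidative phosphorylation is run by 5 protein complexes of the inner mitochondrial membrane, and the genes that encode their subunits in the nucleus were followed here in mouse liver. The genes were chosen by symbol from the deposited count tables: names starting with Nduf and a subunit letter for complex I, the Sdh genes for complex II, Uqcr genes and Cyc1 for complex III, the numbered Cox genes for complex IV and Atp5 genes for complex V. Assembly factors named Ndufaf and pseudogenes were left out. This gave 86 of the 23337 genes in the tables, with 38 for complex I, 4 for complex II, 9 for complex III, 18 for complex IV and 17 for complex V. The livers came from wild-type mice of 3 groups: 60% high-fat diet with 0.25% hyodeoxycholic acid, a secondary bile acid (HFD_HDCA), the 60% high-fat diet alone (HFD), and a normal diet (ND). Each diet was given for 12 weeks from 8 weeks of age, and the livers were taken in the fed state. There were 3 libraries for each group. The labels give neither strain nor sex and do not say whether animals shared a cage, so the p-values measure the spread between these libraries. The comparison of HFD_HDCA with HFD bears on what the bile acid does on top of the diet, and HFD against ND on what the diet does.

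Complexes I to IV form the respiratory chain. Complex I takes electrons from NADH and complex II from succinate, both pass them to ubiquinone, and complexes III and IV carry them by way of cytochrome c to oxygen. Complexes I, III and IV pump protons as they do so, and complex V, the ATP synthase, lets the protons back to make ATP. Most subunits are encoded in the nucleus and a few in mitochondrial DNA, and hepatocytes use the chain to oxidise the NADH and FADH2 that fatty acid oxidation and the tricarboxylic acid cycle deliver. The subunits encoded in mitochondrial DNA were not analysed here.

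Reads on genes ran from 16994353 to 20509203 per library, and 3 reads, the limit that a count of 0 allows, corresponded to 0.152 to 0.182 CPM, read counts scaled to a common library size. This limit covers counting error only. Hepatocyte markers summed to 103301 to 119619 CPM in HFD_HDCA, 101063 to 121556 CPM in HFD and 85572 to 94177 CPM in ND livers. Markers of skeletal muscle, which expresses some isoforms of complex IV of its own, summed to at most 1.10 CPM in any library. Ucp1 was at 0 reads in every HFD_HDCA and HFD library, but not in every ND library. Markers of T and NK cells summed to 3.60 to 4.69 CPM in HFD_HDCA, 1.82 to 2.55 CPM in HFD and 1.72 to 2.89 CPM in ND livers. Markers of B cells summed to 6.26 to 10.1 CPM in HFD_HDCA, 2.68 to 5.89 CPM in HFD and 3.41 to 5.15 CPM in ND livers. Neutrophil markers summed to 1.99 to 13.1 CPM in HFD_HDCA, 0.505 to 2.76 CPM in HFD and 1.52 to 2.08 CPM in ND livers. In the same order, macrophage markers, with Emr1 entered under 2 names, summed to 342 to 683, 136 to 971 and 394 to 468 CPM. Endothelial markers summed to 332 to 377, 220 to 419 and 379 to 435 CPM, and stellate markers to 342 to 485, 413 to 452 and 368 to 422 CPM. Cholangiocyte markers summed to 54.3 to 120, 46.8 to 85.3 and 45.5 to 53.8 CPM. The part of these cells in the results was not tested. A pair of libraries stood apart in other genes. Acute phase genes summed to 20607 CPM in HFD_HDCA 1 and to at most 8978 CPM in every other library, and clock genes summed to 663 CPM in HFD 1 and to at most 448 CPM elsewhere. Counts of calls and medians over members are given below with both libraries and, where they move, without 1 or both. Values of single genes are over all 9 libraries unless stated.

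The regulatory sequence of the subunit genes is shown first, since the members were chosen by symbol alone. RefSeq promoter windows, 250 bases before to 50 after a gene's start on GRCm38.p6, the assembly of mm10, were at hand for 70 of the 86 genes. They were searched on both strands for 4 motifs written as letters: GCGCANGCG for NRF1, CCGGAAG for GABPA, AAGATGGCG for YY1 and TCAAGGTCA for the estrogen-related receptor ERRA. NRF1, GABPA and YY1 are known regulators of nuclear genes for the respiratory chain, and ERRA works with the coactivator PGC-1α on such genes. The NRF1 letters were in a window of 20 of the 70 genes, or 28.6%, against 7.03% of all 27025 genes with a window. The GABPA letters were in 16 genes, 22.9% against 9.93%, the YY1 letters in 8 genes, 11.4% against 1.64%, and the ERRA letters in 2 genes, Atp5g3 and Sdhd, 2.86% against 0.466%. At least one of the 4 was in 36 of the 70 genes (51.4%), against 16.9% of all genes. Among genes with a window, the NRF1 letters were found for 8 of 33 in complex I and 2 of 3 in complex II. They were found for 2 of 5 in complex III, 1 of 13 in complex IV and 7 of 16 in complex V. Matches describe the letters of these windows, and binding was not measured. The genes set beside the members were not limited to those tested in liver, nor matched for base content.

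For each complex, the 250 bases before the start are printed for the subunit with the smallest p-value in HFD_HDCA against HFD among those with a window, 5′ to 3′ on the gene's own strand, with motif matches in capitals. They are Ndufs7 at chr10:80249199-80249448 (+), Sdha at chr13:74350241-74350490 (-), Uqcrh at chr4:116075071-116075320 (-), Cox7a2l at chr17:83514334-83514583 (-) and Atp5h at chr11:115419920-115420169 (-).
Ndufs7: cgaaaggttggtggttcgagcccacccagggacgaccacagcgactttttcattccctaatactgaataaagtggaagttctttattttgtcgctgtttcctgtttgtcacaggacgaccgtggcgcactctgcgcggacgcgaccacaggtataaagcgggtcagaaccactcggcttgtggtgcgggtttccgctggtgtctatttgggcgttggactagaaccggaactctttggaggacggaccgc
Sdha: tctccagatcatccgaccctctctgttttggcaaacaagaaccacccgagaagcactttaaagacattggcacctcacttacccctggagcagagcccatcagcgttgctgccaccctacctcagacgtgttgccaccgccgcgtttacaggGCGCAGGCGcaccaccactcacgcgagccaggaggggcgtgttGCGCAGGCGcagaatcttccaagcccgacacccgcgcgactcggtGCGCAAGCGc
Uqcrh: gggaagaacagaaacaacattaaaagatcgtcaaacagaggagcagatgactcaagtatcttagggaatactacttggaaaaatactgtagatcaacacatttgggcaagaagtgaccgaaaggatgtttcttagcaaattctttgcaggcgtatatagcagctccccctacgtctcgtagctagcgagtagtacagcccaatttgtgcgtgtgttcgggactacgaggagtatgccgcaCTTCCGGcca
Cox7a2l: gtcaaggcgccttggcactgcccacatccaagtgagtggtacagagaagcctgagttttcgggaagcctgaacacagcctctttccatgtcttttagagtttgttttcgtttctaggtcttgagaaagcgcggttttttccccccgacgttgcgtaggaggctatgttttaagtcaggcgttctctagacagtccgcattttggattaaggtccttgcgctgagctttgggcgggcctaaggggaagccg
Atp5h: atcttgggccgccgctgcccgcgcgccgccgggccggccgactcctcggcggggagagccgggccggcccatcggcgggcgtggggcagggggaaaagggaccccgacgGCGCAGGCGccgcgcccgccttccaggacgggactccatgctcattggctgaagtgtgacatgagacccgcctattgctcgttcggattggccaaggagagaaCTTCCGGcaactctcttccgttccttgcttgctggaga
The Sdha stretch holds the NRF1 letters 3 times and the Uqcrh stretch holds the GABPA letters once, read on the other strand. The Atp5h stretch holds the NRF1 letters once and the GABPA letters once, the second on the other strand. In the Ndufs7 window the YY1 letters lie after the start, outside the printed bases, and no match was found in the Cox7a2l window.

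Levels can be set side by side between genes only per transcript length, for which the authors' FPKM values were used. Over the 79 members that passed the low-count filter, mean FPKM over the 9 livers ran from 1.06 to 790 with a median of 169. By complex the median was 116 FPKM in complex I, 164 in complex II, 309 in complex III, 351 in complex IV and 279 in complex V. Ndufa4 was the highest of all at 940.3 ± 225 FPKM in HFD_HDCA, 733 ± 108 in HFD and 698 ± 30.7 in ND livers (SD, n = 3 each). It carries a complex I name, although its protein is now placed in complex IV. In complex V the highest was Atp5k, the membrane subunit e, at 751 ± 149 FPKM in HFD_HDCA, 652 ± 94.6 in HFD and 615 ± 29.3 in ND livers (SD, n = 3 each), and in complex III Uqcrq at 669 ± 120.0 FPKM in HFD_HDCA, 623 ± 45.0 in HFD and 531 ± 26.4 in ND livers (SD, n = 3 each).

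Among the isoforms of complex IV known from muscle, lung or testis, 6 were near 0, and the plot of FPKM shows them below the other members. Cox7a1, the heart and muscle form of subunit 7a, was not among the 6, with a mean of 7.57 FPKM. Cox4i1, the common form of subunit 4, averaged 747 ± 120.2 FPKM in HFD_HDCA, 596 ± 96.7 in HFD and 603 ± 32.5 in ND livers (SD, n = 3 each), while Cox4i2, the lung form, had between 0 and 3 reads in any library. Cox6a2 and Cox8b, forms of heart and skeletal muscle, and Cox7b2 and Cox8c, known from testis, averaged at most 0.391 FPKM in any group. Cox6b2, the testis form of subunit 6b, had 12, 4 and 8 reads in HFD_HDCA livers 1 to 3, 2, 2 and 1 reads in HFD livers and 2, 4 and 2 reads in ND livers. Those 6 genes did not pass the low-count filter. In the authors' FPKM with limma, where Cox6b2 did enter, its log2 fold change on the log2(FPKM + 0.1) scale was 1.70 ± 0.32 (SE, n = 3 each, adjusted p = 0.0265) for HFD_HDCA against HFD. With a pseudocount of 1 it was 0.71 ± 0.13 (adjusted p = 0.0254). At the smaller pseudocount it was the 1 member called, against 3.55% of all genes. All of its counts lie at or under 12 reads. The 7th gene without a test was Ndufs5, a subunit of complex I, which had 0 reads in all 9 count files, although FPKM listed it at up to 7.32. The count and FPKM files differ for this gene, so no level is given for it. Of the 17 genes with an Atp5 symbol, Atp5s and Atp5sl have the current names Dmac2l and Dmac2 and are not subunits of the ATP synthase. They stood at 3.47 and 10.5 mean FPKM, below every true subunit of complex V. Values by complex go by symbol here, so Atp5s and Atp5sl count with complex V and Ndufa4 with complex I.

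**Figure D1:**
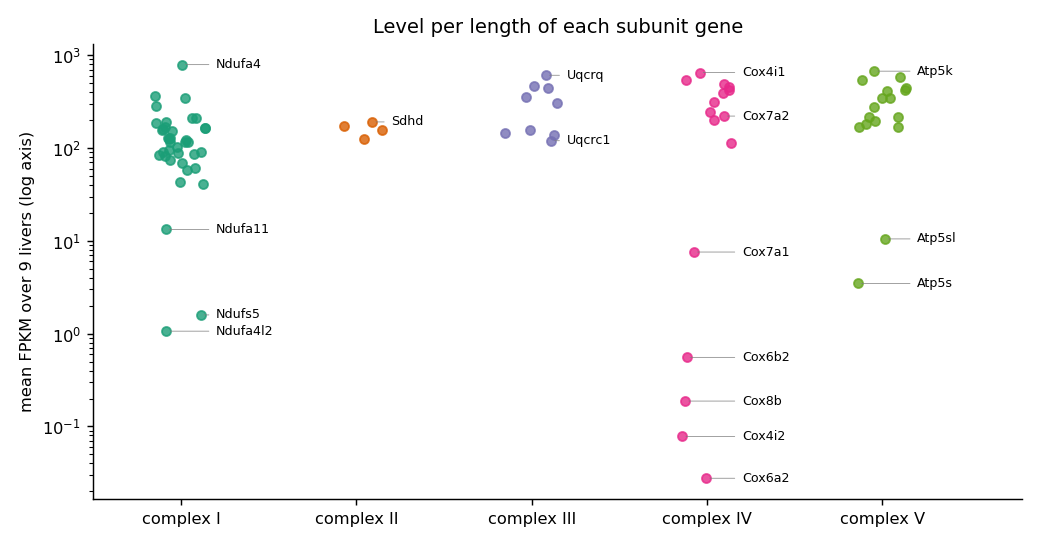
Mean FPKM over the 9 livers of each gene (log axis) by complex, one dot per gene. Cox7b2 and Cox8c, both listed at 0, are not drawn. Ndufa4 stands highest at 790, and Cox6b2, Cox8b, Cox4i2 and Cox6a2 lie at 0.555 or lower.

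No subunit gene passed the test in HFD_HDCA against HFD. In this comparison edgeR's quasi-likelihood test at an adjusted p under 0.05 called 0 of the 79 tested members, against 3.4% of all 12587 genes tested. With no adjustment, at p under 0.05, the same test had 21 members higher (26.6%) and 2 lower (2.53%), against 11.6% and 10.4% of all genes. DESeq2 called 1 member, Cox7a2l (adjusted p = 0.0444), against 6.11% of all genes. The log2 fold change was above 0 for 67 of 79 members (84.8%), against 49.7% of all genes. Its median over members was 0.24, a fold of 1.18, against -0.00 over all genes tested. The 3 livers of a group did not overlap with the other 3 for only 1 member that was higher and 2 that were lower, against 11.3% and 11.1% of all genes. In bulk liver, fewer cells of a type and less RNA per cell cannot be told apart.

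The HFD_HDCA livers differed among themselves more than the livers of the other groups did. For each member, log2 CPM was set against its mean over the 9 libraries, and the median of these differences was taken in each library. It was 0.35, -0.12 and 0.21 in HFD_HDCA livers 1 to 3, 0.01, -0.07 and -0.19 in HFD livers 1 to 3, and -0.02, -0.06 and -0.06 in ND livers 1 to 3. Livers 1 and 3 of HFD_HDCA were the highest of the 9, and liver 2 lay between HFD livers 2 and 3. Of the 79 members, 57 had their highest CPM of all in HFD_HDCA 1 and 43 their lowest in HFD 3, with a further 22 lowest in HFD_HDCA 2. Within HFD_HDCA, liver 1 was highest for 66 members and liver 2 lowest for 68. The log2 ratio of the highest to the lowest liver of a group had a median over members of 0.50 in HFD_HDCA, 0.24 in HFD and 0.07 in ND. Members took 1.40 ± 0.131% of gene reads in HFD_HDCA, 1.34 ± 0.0829% in HFD and 1.38 ± 0.0280% in ND livers (SD, n = 3 each), and these ranges overlapped.

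**Figure D2:**
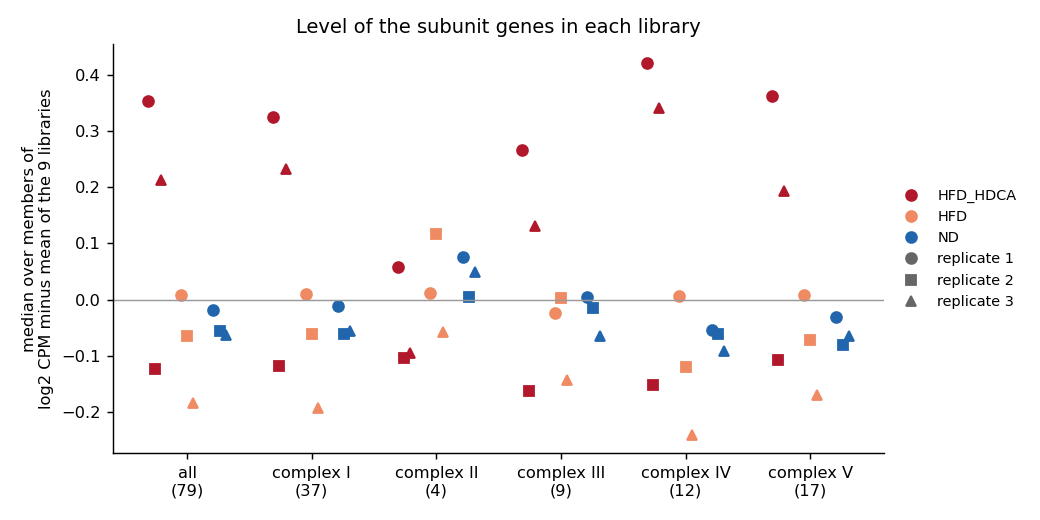
Median over members of log2 CPM minus the mean over the 9 libraries (y axis, log2 units), for all members and for each complex, one symbol per library. HFD_HDCA livers 1 and 3 stand at 0.35 and 0.21 for all members, and HFD_HDCA liver 2 at -0.12, among the HFD and ND livers.

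The calls depended on which livers entered. Without HFD_HDCA 2, edgeR called 26 members, all higher in HFD_HDCA, against 3.73% of all genes called higher, and the median became 0.39. Those 26 were 12 of complex I, 1 of complex II, 2 of complex III, 6 of complex IV and 5 of complex V. They included Ndufs4, Ndufa7, Cox7a2, Uqcr10 and Sdhd, and their log2 fold changes ran from 0.45 to 0.86. Without HFD_HDCA 1 the median was 0.15 and 0 members were called by edgeR against 3.18% of all genes. At an unadjusted p under 0.05 there were then 3 higher and 2 lower, against 10.5% and 9.2%. Leaving out HFD 1 and HFD_HDCA 1 together, the pair that stood apart in clock and acute phase genes, gave a median of 0.20 and 3 calls, against 7.7% of all genes. These were Atp5sl (0.66, adjusted p = 0.0202) and Cox7a2l (0.54, adjusted p = 0.0384), both higher, and Sdha (-0.44, adjusted p = 0.0459), lower in HFD_HDCA. Without HFD 1 alone, Atp5sl was the 1 call (0.73, adjusted p = 0.0197), against 5.26% of all genes.

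**Figure D3:**
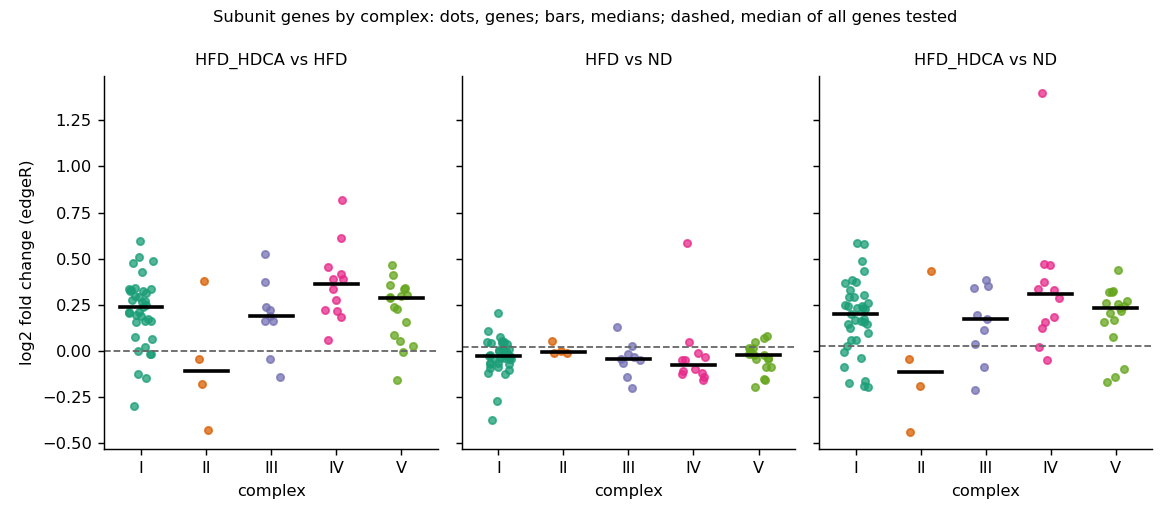
Log2 fold change from edgeR (y axis) of each tested member by complex in the 3 comparisons, with the median of each complex as a bar and the median of all genes tested as a dashed line. In HFD_HDCA against HFD the medians are 0.24 for complex I, -0.11 for complex II, 0.19 for complex III, 0.36 for complex IV and 0.29 for complex V, and in HFD against ND they run from -0.07 to -0.01.

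In complex I, HFD_HDCA against HFD had 32 of 37 members above 0 and a median of 0.24, with Ndufa4 and Ndufa4l2 counted here by symbol. The core subunits, which carry the flavin and the iron-sulfur clusters, had a median of 0.00 over 7 genes. The supernumerary subunits, which surround the core and stabilise it, had a median of 0.26 over 30 genes, with 28 above 0. After correction for transcript length complex I had a median of -0.01, with 18 members above 0 and 19 below. Genes of both classes then lay on both sides of 0, and the contrast between the classes was not tested. Ndufb4, a supernumerary subunit of the membrane arm, had 77.8, 44.3 and 68.0 CPM in HFD_HDCA livers, 52.4, 43.2 and 38.2 CPM in HFD livers and 42.5, 42.3 and 42.1 CPM in ND livers. HFD_HDCA livers 1 and 3 were above all HFD and ND livers, and liver 2 lay inside the HFD range. Its log2 fold change was 0.51 ± 0.19 (SE, edgeR adjusted p = 0.156). Ndufa7, another supernumerary subunit, had 147, 70.6 and 118 CPM in HFD_HDCA livers, 85.7, 74.5 and 62.0 CPM in HFD livers and 76.2, 77.2 and 71.8 CPM in ND livers. Here too liver 2 fell within the HFD range, and the log2 fold change was 0.60 ± 0.23 (SE, edgeR adjusted p = 0.167). Ndufs4, which joins the NADH-binding end of the complex late in assembly, had 133, 74.2 and 112 CPM in HFD_HDCA livers and 82.7, 77.1 and 68.0 CPM in HFD livers, with a log2 fold change of 0.49 ± 0.18 (SE, edgeR adjusted p = 0.157). The core subunits lay on both sides of 0. Ndufs7, which holds the last iron-sulfur cluster before ubiquinone, had 78.5, 64.3 and 72.1 CPM in HFD_HDCA livers and 64.3, 53.4 and 52.9 CPM in HFD livers. HFD_HDCA liver 2 and HFD liver 1 had nearly the same value, the other livers did not overlap, and the log2 fold change was 0.33 ± 0.12 (SE, edgeR adjusted p = 0.135). Ndufs1, the largest subunit and the holder of several iron-sulfur clusters, had 136, 139.9 and 127 CPM in HFD_HDCA livers and 143, 186 and 166 CPM in HFD livers. All 3 HFD_HDCA livers were below all 3 HFD livers, and the log2 fold change was -0.30 ± 0.12 (SE, edgeR adjusted p = 0.169). Ndufab1, the mitochondrial acyl carrier protein that is also a subunit of complex I, was the 1 member whose HFD_HDCA livers were all above the HFD livers, with 48.9, 46.7 and 53.7 CPM in HFD_HDCA livers and 41.9, 43.6 and 40.2 CPM in HFD livers and a log2 fold change of 0.25 ± 0.10 (SE, edgeR adjusted p = 0.169). Ndufa4l2, a paralogue of Ndufa4 that is known as a hypoxia-induced gene, had 1.51, 1.16 and 0.722 CPM in HFD_HDCA livers, 1.25, 0.909 and 0.781 CPM in HFD livers and 1.61, 1.08 and 1.10 CPM in ND livers, with all 3 groups overlapping. Ndufa4 itself had 493, 279 and 443 CPM in HFD_HDCA livers, 330.5, 289 and 255 CPM in HFD livers and 304, 303 and 292 CPM in ND livers.

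In mm10 coordinates of the authors' tables, Ndufb4 lies at chr16:37647602-37654368 and Ndufs1 at chr1:63143592-63176822. The members described next include Sdha at chr13:74322255-74350240, Sdhd at chr9:50596340-50603849, Uqcrh at chr4:116066965-116075070 and Cox7a2l at chr17:83501917-83514333.

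**Figure D4:**
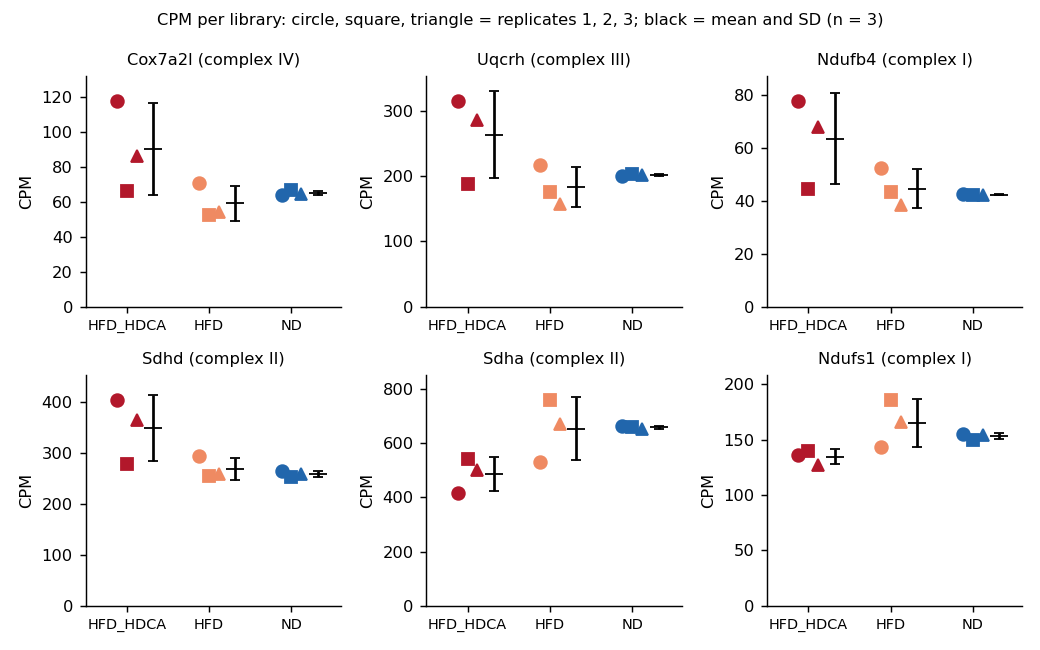
CPM per library (y axes from 0) of 6 members in HFD_HDCA, HFD and ND livers, with the group mean and SD beside the symbols (n = 3). In Cox7a2l, Uqcrh, Ndufb4 and Sdhd the square, HFD_HDCA liver 2, lies below the other HFD_HDCA livers. In Sdha and Ndufs1 the HFD_HDCA mean lies below the HFD and ND means.

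Of the 4 genes of complex II, succinate dehydrogenase, Sdhd was above 0 and Sdha, Sdhb and Sdhc were below 0 in HFD_HDCA against HFD, and none passed the test. Sdha, the flavoprotein that oxidises succinate, had 416, 543 and 501 CPM in HFD_HDCA livers, 531, 762 and 670.1 CPM in HFD livers and 666, 659.7 and 654 CPM in ND livers. Its HFD_HDCA livers 1 and 3 were below all HFD and ND livers, while liver 2 lay above HFD liver 1 and below every ND liver. The log2 fold change was -0.43 ± 0.15 (SE, edgeR adjusted p = 0.143). Sdhb, the iron-sulfur subunit, had 228, 167 and 181 CPM in HFD_HDCA livers, 223, 229 and 199.6 CPM in HFD livers and 226, 211 and 220.1 CPM in ND livers. HFD_HDCA liver 1 lay with the other groups and livers 2 and 3 below them, and the log2 fold change was -0.18 ± 0.13 (SE, edgeR adjusted p = 0.456). Sdhd, one of the anchor proteins that hold the enzyme in the membrane at the ubiquinone site, had 405, 278 and 363 CPM in HFD_HDCA livers, 294, 254 and 258 CPM in HFD livers and 264, 253 and 259 CPM in ND livers. HFD_HDCA liver 2 fell between HFD livers 1 and 3, and the log2 fold change was 0.38 ± 0.14 (SE, edgeR adjusted p = 0.163). Sdhc, the other anchor protein, had 174, 165 and 177 CPM in HFD_HDCA livers and 175, 188 and 169 CPM in HFD livers and a log2 fold change of -0.04 ± 0.10 (SE, edgeR adjusted p = 0.828). The groups overlapped throughout for Sdhc.

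In complex III the 2 subunits of the redox centres, Cyc1 (cytochrome c1) and Uqcrfs1 (the Rieske iron-sulfur protein), had log2 fold changes of -0.04 and 0.16. The core proteins Uqcrc1 and Uqcrc2, which face the matrix and carry no redox centre, had -0.14 and 0.16. The 5 small subunits had a median of 0.24 and all were above 0. After correction for transcript length Uqcr11 and Uqcrb of these were below 0, and 5 of the 9 members of complex III were above 0. Uqcrh, the hinge protein at the cytochrome c docking site, had 316, 188 and 285 CPM in HFD_HDCA livers, 217, 175 and 157 CPM in HFD livers and 200.2, 203 and 201 CPM in ND livers. HFD_HDCA livers 1 and 3 were above all other livers and liver 2 was inside the HFD range, with a log2 fold change of 0.53 ± 0.19 (SE, edgeR adjusted p = 0.141). Uqcrc1 had 229, 228 and 217 CPM in HFD_HDCA livers and 235, 270.4 and 239 CPM in HFD livers. Its HFD_HDCA livers were all below the HFD livers, by a small margin, and the log2 fold change was -0.14 ± 0.10 (SE, edgeR adjusted p = 0.451).

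Complex IV had the largest median of the 5 complexes in HFD_HDCA against HFD, 0.36, and all 12 tested members were above 0. After correction for transcript length the median was 0.08, with 7 above 0 and 5 below. Cox7a2l, known as a supercomplex assembly factor that links complexes III and IV, had 118, 66.2 and 86.5 CPM in HFD_HDCA livers, 70.7, 52.5 and 54.3 CPM in HFD livers and 64.3, 66.8 and 64.6 CPM in ND livers. The HFD_HDCA and HFD ranges met only through HFD_HDCA liver 2 and HFD liver 1, and the log2 fold change of 0.61 ± 0.19 (SE, edgeR adjusted p = 0.107) had the smallest p-value of all members here. Cox4i1, a subunit needed for assembly and for regulation by ATP, had 593, 400.1 and 551 CPM in HFD_HDCA livers, 436, 360.1 and 331 CPM in HFD livers and 408, 423 and 399 CPM in ND livers and a log2 fold change of 0.45 ± 0.16 (SE, edgeR adjusted p = 0.142). HFD_HDCA liver 2 was below HFD liver 1. Cox7a2, the liver form of subunit 7a, had 257, 145 and 232 CPM in HFD_HDCA livers and 173, 163 and 148 CPM in HFD livers and a log2 fold change of 0.39 ± 0.18 (SE, edgeR adjusted p = 0.245). The heart and muscle form, Cox7a1, was low, with 3.57, 1.92 and 2.47 CPM in HFD_HDCA livers, 1.62, 0.859 and 2.03 CPM in HFD livers and 0.781, 1.41 and 0.810 CPM in ND livers. Its reads numbered 59, 33 and 41 in HFD_HDCA livers, 30, 17 and 39 in HFD livers and 15, 26 and 14 in ND livers. For the liver forms Cox6a1, Cox6b1 and Cox8a the log2 fold changes were 0.22, 0.27 and 0.18, and they turned to -0.07, -0.02 and -0.10 after correction for transcript length.

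In complex V the head and stalk of F1, where ATP is made, had a median of 0.05 over 5 genes. The catalytic subunit gene Atp5b had 1338, 1296 and 1259 CPM in HFD_HDCA livers, 1244, 1383 and 1284 CPM in HFD livers and 1461, 1478 and 1433 CPM in ND livers. The livers overlapped between HFD_HDCA and HFD, and the log2 fold change was -0.01 ± 0.11 (SE, edgeR adjusted p = 0.979). The 3 genes of the c-ring, Atp5g1, Atp5g2 and Atp5g3, encode the same mature protein, and their log2 fold changes were 0.03, 0.09 and 0.15. Scaled by library size alone, Atp5g1 and Atp5g2 turned to -0.07 and -0.00, and after correction for transcript length Atp5g2 and Atp5g3 turned to -0.16 and -0.10. The 4 genes of the peripheral stalk, which keeps the head from turning, had a median of 0.30, and all were above 0. After correction for transcript length those 4 were above 0 at 0.14 or lower, and complex V had a median of 0.06. Atp5h, subunit d of that stalk, had 238, 162 and 203 CPM in HFD_HDCA livers, 178, 154 and 143 CPM in HFD livers and 166, 161 and 156 CPM in ND livers. HFD_HDCA livers 1 and 3 were above the HFD livers and liver 2 inside their range, with a log2 fold change of 0.34 ± 0.15 (SE, edgeR adjusted p = 0.206). The membrane subunits Atp5j2, Atp5k and Atp5l had log2 fold changes of 0.30, 0.34 and 0.29, and after correction for transcript length 0.08, -0.04 and -0.03.

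Subunit genes have short transcripts. In HFD_HDCA against HFD the log2 fold changes ran with transcript length among members and among other genes alike. The median transcript was 875 bases over the 79 tested members and 2982 bases over the 11178 tested genes with a length in GENCODE. In HFD_HDCA against HFD, Spearman's rho between length and log2 fold change was -0.41 over the 79 members, which share their libraries and are not independent. Members of up to 600 bases had a median of 0.27 with 19 of 19 above 0. The 85 other genes of that length had 0.25, and 82.4% of them were above 0. Between 600 and 1000 bases the medians were 0.30 over 26 members and 0.28 over 467 other genes. Between 1000 and 2000 bases they were 0.16 over 26 members and 0.11 over 2391 other genes. Above 2000 bases they were -0.10 over 8 members and -0.07 over 8156 other genes. The long members were Sdha, Sdhc, Ndufs1, Ndufa10, Ndufab1, Ndufb2, Atp5g1 and Atp5a1, the α subunit of F1. In each class of this comparison the members lay close to the other genes of the same length. In HFD against ND rho over members was 0.11. From the shortest class to the longest, the medians there were -0.04, -0.04, -0.02 and 0.01 over members. Over other genes they were 0.03, 0.02, 0.02 and 0.02.

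The relation with length differed between libraries. Other genes of up to 600 bases stood at 0.47, -0.17 and 0.24 in HFD_HDCA livers 1 to 3, as the median of log2 CPM minus the mean of the 9 libraries. They stood at 0.01, -0.05 and -0.19 in HFD livers and at -0.10, -0.09 and -0.07 in ND livers. The members of that length had 0.40, -0.16 and 0.29 in HFD_HDCA livers, 0.01, -0.10 and -0.21 in HFD livers and -0.03, -0.06 and -0.08 in ND livers. The order of the livers among short members was close to that among other short genes. When the trend with length, fitted in each library on genes that are not members, was taken out of the counts, the median over members in HFD_HDCA against HFD was 0.00, with 40 above 0 and 39 below. The medians of complexes I, II, III and V were then -0.01, -0.18, 0.02 and 0.06. Ndufa7, Ndufs4, Uqcrh, Ndufb4, Cox4i1 and Cox7a2 had smaller log2 fold changes than before, at 0.26, 0.40, 0.21, 0.29, 0.20 and 0.10. Sdha and Ndufs1 had -0.41 and -0.30, close to their values without the correction. No member was called there by edgeR, against 4.03% of all genes, with 4 higher and 7 lower at an unadjusted p under 0.05, where 1232 and 1122 of all 11178 genes passed. Sdhb had the smallest p-value, with a log2 fold change of -0.35 ± 0.09 (adjusted p = 0.0565), followed by Ndufab1 at 0.29 ± 0.09 (adjusted p = 0.110) and Cox7a2l at 0.42 ± 0.14 (adjusted p = 0.125). With both this correction and HFD_HDCA 2 left out, 2 members were called in place of 26, Ndufs4 (0.58, adjusted p = 0.0380) and Ndufb2, a supernumerary subunit of the membrane arm (0.61, adjusted p = 0.0440), against 1.75% of all genes. The length of Ndufb2 used here was that of an annotated transcript of 4371 bases, with 315 bases of coding sequence. Atp5g1, Ndufab1 and Sdhc likewise entered with 4715, 3479 and 3171 bases, for coding sequences of 408, 468 and 507 bases. The length class and the correction of these genes rest on that choice of transcript. Both settings were chosen after the data had been seen. What sets the relation between length and level was not tested.

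**Figure D5:**
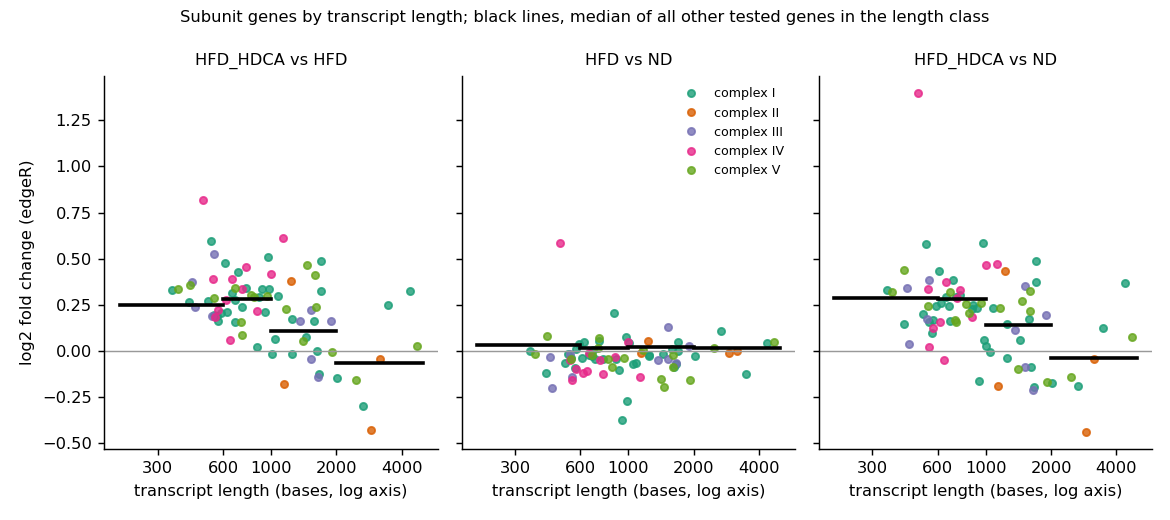
Log2 fold change from edgeR (y axis) of each tested member against the length of its transcript in bases (log axis), with black lines at the median of all other tested genes in each length class. In HFD_HDCA against HFD the lines stand at 0.25, 0.28, 0.11 and -0.07 from the shortest class to the longest, and the members lie around them. In HFD against ND the 4 lines lie at 0.02 or 0.03.

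No subunit gene passed the test in HFD against ND. edgeR called 0 of 79 members against 0.953% of all genes, and DESeq2 called 0 against 2.13%. At an unadjusted p under 0.05 the edgeR test had 0 members higher and 1 lower, against 6.67% and 4.83% of all genes. The median log2 fold change was -0.03 over members and 0.02 over all genes, and 24 of 79 members were above 0 (30.4%), against 53.3% of all genes. Leaving out 1 library at a time gave medians from -0.07 without HFD 1 to 0.02 without HFD 3. The medians of the complexes ran from -0.07 in complex IV to -0.01 in complex II. The 1 member under the unadjusted threshold was Ndufs7, with 64.3, 53.4 and 52.9 CPM in HFD livers and 69.1, 71.8 and 65.3 CPM in ND livers. All 3 HFD livers were below the ND livers, and the log2 fold change was -0.27 ± 0.12 (SE, edgeR adjusted p = 0.392). It passed the test (adjusted p = 0.0470) when HFD 1 and HFD_HDCA 1 were both left out, as did 4.54% of all genes. Non-overlapping livers were seen for 1 member that was higher, Ndufa8, and 6 that were lower, against 10.9% and 9.2% of all genes. Cox8a, the liver form of subunit 8, was among the 6, with 168, 179 and 166 CPM in HFD livers and 197, 190 and 186 CPM in ND livers. Its log2 fold change was -0.16 ± 0.10 (SE, edgeR adjusted p = 0.625). Atp5b was another of the 6, at -0.16 ± 0.11 (SE, edgeR adjusted p = 0.643), and Uqcr11, the smallest subunit of complex III, had -0.20 ± 0.14 (SE, edgeR adjusted p = 0.660). In the authors' FPKM the median over members was 0.08 in place of -0.03, where all genes shifted to 0.11. With no filter on FPKM it was 0.08 over members and 0.00 over all genes. After correction for transcript length the median was -0.04 over members and 0.00 over all genes. Of the members, 23 were then above 0 and 56 below. edgeR called 0 members there, and 118 of all 11178 genes.

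HFD_HDCA against ND shares libraries with both other comparisons, as those share the HFD libraries, so its values are not independent of theirs. edgeR called 0 of 79 members against 6.47% of all genes. At an unadjusted p under 0.05 it had 15 higher (19.0%) and 1 lower (1.27%), against 14.8% and 11.4% of all genes. DESeq2 called 2, Cox7a1 (1.38 ± 0.45, adjusted p = 0.0260) and Sdha (-0.46 ± 0.16, adjusted p = 0.0431), against 7.79% of all genes. The median was 0.21 over members and 0.03 over all genes, with 63 of 79 members above 0 (79.7%) against 53.0% of all genes. It was 0.35 without HFD_HDCA 2, where edgeR called 25 members, all higher, against 6.21% of all genes called higher. It was 0.11 without HFD_HDCA 1, with 0 calls against 5.4% of all genes. The livers did not overlap for 6 members that were higher and 8 that were lower, against 17.8% and 16.1% of all genes.

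The smallest p-value in HFD_HDCA against ND was that of Cox7a1, whose HFD_HDCA livers were all above the ND livers at the levels given earlier. Its log2 fold change was 1.40 ± 0.40 (SE, edgeR adjusted p = 0.0637). Cox7a1 passed the test when only the 6 libraries of the comparison were fitted (adjusted p = 0.0411, against 8.1% of all genes called). It also passed without HFD 2 (adjusted p = 0.0415, against 6.16%). After correction for transcript length it did not pass, at 1.08 ± 0.38 (SE, edgeR adjusted p = 0.120). With HFD_HDCA 2 also left out it had 1.11 ± 0.43 (SE, edgeR adjusted p = 0.158). The defining markers of muscle were near 0 in all groups, as given earlier. Of the 12, 9 were at 0 reads in every HFD_HDCA library and 5 in every ND library. Brown fat also uses Cox7a1. Markers of brown and white adipocytes together summed to 6.74 to 15.4 CPM in HFD_HDCA, 11.7 to 26.5 CPM in HFD and 8.79 to 9.58 CPM in ND livers. Ucp1, a brown fat marker among them, was at 0 reads in every HFD_HDCA and HFD library but not in every ND library, as given earlier. Of the 8 adipocyte markers, 4 were at 0 reads in every HFD_HDCA library and 3 in every ND library. Ndufb4 had 0.58 ± 0.19 (SE, edgeR adjusted p = 0.0922) and Sdhd 0.43 ± 0.14 (SE, edgeR adjusted p = 0.0962). The livers did not overlap for either of them, HFD_HDCA being higher. Ndufv2, a core subunit next to the flavin of complex I, had 151, 102 and 131 CPM in HFD_HDCA livers and 97.5, 96.6 and 102 CPM in ND livers. Its log2 fold change was 0.37 ± 0.14 (SE, edgeR adjusted p = 0.120). HFD_HDCA 2 met the ND livers there. Sdha had -0.44 ± 0.15 (SE, edgeR adjusted p = 0.109), and all 3 HFD_HDCA livers were below the ND livers. Other members whose HFD_HDCA livers were all lower included Ndufs1, Ndufv1, Ndufa10, Uqcrc1, Atp5a1 and Atp5b. The adjusted p-values of these 6 ran from 0.226 to 0.478. After the correction for transcript length, 1 member was called by edgeR, Sdhb, lower in HFD_HDCA (-0.38 ± 0.09, adjusted p = 0.0343), against 5.98% of all genes. The median over members was then -0.02. With HFD_HDCA 2 also left out, Sdhb no longer passed (-0.37 ± 0.10, adjusted p = 0.0681). The 4 calls were then Ndufb2, Ndufs4, Ndufb4 and Ndufv2 of complex I, all higher in HFD_HDCA, against 4.49% of all genes.

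The genes that assemble, feed and regulate the chain were read from 11 lists with 139 tested genes, chosen with earlier results of these data known. They hold the assembly factors of each complex, electron carriers, coenzyme Q synthesis, the tricarboxylic acid cycle, mitochondrial carriers, part of the mitochondrial ribosome, and transcription factors of mitochondrial genes. In HFD_HDCA against HFD edgeR called 0 of the 139, against 3.4% of all genes. Before adjustment 18 were higher (12.9%) and 6 lower (4.32%) at p under 0.05, against 11.6% and 10.4% of all genes. With DESeq2, 4 were called higher and 3 lower (5.04% together), against 6.11% of all genes. The median was 0.05. In HFD against ND edgeR called 0 against 0.953% of all genes and DESeq2 0 against 2.13%. At an unadjusted p under 0.05 there were 1 higher and 1 lower, against 6.67% and 4.83%. In HFD_HDCA against ND edgeR called 3, all higher (2.16%), against 6.47% of all genes, and DESeq2 called 9 higher and 1 lower (7.19% together), against 7.79%. The 3 were Tfam, Atpif1 and Suclg1. Tfam, which packages mitochondrial DNA and starts its transcription, had 66.1, 70.8 and 70.7 CPM in HFD_HDCA livers, 54.8, 57.4 and 52.8 CPM in HFD livers and 49.7, 52.5 and 47.8 CPM in ND livers. The 3 groups did not overlap, and Tfam rose against ND by 0.47 ± 0.09 (adjusted p = 0.0163), while against HFD its 0.33 ± 0.09 did not pass (adjusted p = 0.0751). Atpif1, the inhibitor of the ATP synthase when it runs in reverse, had 33.9, 16.9 and 18.7 CPM in HFD_HDCA livers and 11.6, 12.1 and 11.7 CPM in ND livers. Atpif1 rose by 0.97 ± 0.24 (adjusted p = 0.0436), with HFD_HDCA liver 1 well above livers 2 and 3. Against HFD its 0.69 ± 0.24 did not pass (adjusted p = 0.137). Suclg1, the α subunit of succinyl-CoA ligase, rose by 0.40 ± 0.10, at an adjusted p just under 0.05. For the genes of these lists, values with the length correction or with a library left out are not given here.

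None of the other regulators tested passed with edgeR in any comparison. In HFD_HDCA against HFD the log2 fold change was -0.29 ± 0.31 for Ppargc1a, the gene of PGC-1α, and -0.37 ± 0.41 for its relative Ppargc1b. It was 0.34 ± 0.16 for Esrra, the gene of ERRA, -0.06 ± 0.15 for Nrf1 and -0.03 ± 0.13 for Gabpa. Members whose window holds the NRF1 letters had a median log2 fold change of 0.24 over 19 tested genes in that comparison, and those without had 0.27 over 47. For the GABPA letters the medians were 0.28 over 16 genes with them and 0.26 over 50 without. For the YY1 letters they were 0.30 over 8 genes and 0.24 over 58, and for the ERRA letters 0.26 over 2 and 0.27 over 64. Cs, citrate synthase, the first enzyme of the cycle that feeds complexes I and II, had 105, 120 and 121 CPM in HFD_HDCA livers and 130, 198 and 220 CPM in HFD livers. Its log2 fold change of -0.67 ± 0.17 did not pass (adjusted p = 0.0634).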

How the data were processed

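RNA from 9 mouse livers was made into libraries with a TruSeq RNA kit and sequenced, per the labels' protocols. The authors deposited whole-number counts of reads per gene from HTSeq, per the labels, and FPKM values (fragments scaled by transcript length and library depth) in tables of the kind Cufflinks writes, per the file headers. TopHat 1.3.2, Cufflinks 2.0.2 and mm10 are named in the submitters' processing notes, without further settings, and the strand setting of the counting is not given in the sources used here, so reads of overlapping antisense genes cannot be told apart.

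Lines that name no gene were left out, which kept 63.9% to 72.1% of the reads in a count file. Reads aligned to several places, which the count files list apart, were 14.5% to 16.0% in HFD_HDCA, 13.3% to 14.0% in HFD and 16.6% to 19.4% in ND files, so genes with near-identical copies may be undercounted. Genes were filtered with filterByExpr at a minimum count of 10, which left 12587, scaled by TMM and tested in one fit over the 9 libraries with edgeR 4.0.16 (R 4.3.3), quasi-likelihood test, Benjamini-Hochberg adjustment over all genes tested and a threshold of 0.05. CPM and fold changes use the TMM-scaled library sizes. FPKM was tested with limma 3.58.1 on log2(FPKM + 0.1), and DESeq2 1.42.0 was an alternative. The length correction, added after the data were seen, took a lowess trend (span 0.3) of transcript length, from the GENCODE annotation and fitted on genes that are not members, out of each library. The scripts were tested on simulated data.

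The members and gene lists were chosen with earlier results of these data known. Members were named where a fit called them or where they had the 2 smallest p-values of their complex in a comparison, with isoform sets, and others that are named were chosen after their values were seen. Replicate numbers did not pair the libraries: same-numbered libraries of different groups had correlations of -0.149 to 0.153 over genes.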

Additional observations from a re-analysis of the deposited data

How the results depend on the processing

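Library choice and transcript length moved the results most. In HFD_HDCA against HFD the number of members called, 0 with edgeR, ran from 0 to 26 over single left-out libraries and was 3 without HFD 1 and HFD_HDCA 1, 1 with DESeq2, 1 with FPKM at either pseudocount and 2 with the length correction without HFD_HDCA 2. The median, 0.24, ran from 0.15 to 0.39 over single left-out libraries and was 0.0019 with the length correction and 0.031 with that correction without HFD_HDCA 2. In HFD against ND the call count, 0, became 1 only without HFD 1 and HFD_HDCA 1, and the median became 0.079 with FPKM + 0.1, 0.078 with FPKM + 1 and 0.078 with FPKM + 0.1 unfiltered. In HFD_HDCA against ND the calls ran from 0 to 25 over single left-out libraries, and were 1 with the 6 libraries of the comparison, 1 with FPKM at either pseudocount, 2 with DESeq2, 1 with the length correction and 4 with that correction without HFD_HDCA 2. The median of 0.21 became -0.024 and -0.0072 under those length corrections, and ran from 0.11 to 0.35 over single left-out libraries. Without the 20 genes with the most reads, members took 1.84% of reads in HFD_HDCA, 1.75% in HFD and 1.75% in ND livers. The causes were not tested.

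Among the members whose log2 fold change is given, the direction turned in these, none of which passed the test with edgeR over all 9 libraries. For HFD_HDCA against HFD, with the reported log2 fold change in parentheses: Atp5b (-0.0069) was -0.040 to 0.037 over single left-out libraries, -0.041 without HFD 1 and HFD_HDCA 1. Atp5g1 (0.027) was -0.11 to 0.17 over single left-out libraries, -0.068 with library size alone, -0.020 without HFD 1 and HFD_HDCA 1, -0.071 with FPKM + 0.1 and with FPKM + 0.1 unfiltered, -0.070 with FPKM + 1. Atp5g2 (0.087) was -0.0028 with library size alone, -0.16 with the length correction, -0.19 with that correction without HFD_HDCA 2. Atp5g3 (0.15) was -0.10 with the length correction, -0.11 with that correction without HFD_HDCA 2. Atp5k (0.34) was -0.035 with the length correction, -0.048 with that correction without HFD_HDCA 2. Atp5l (0.29) was -0.029 with the length correction, -0.0060 with that correction without HFD_HDCA 2. Cox6a1 (0.22) was -0.067 with the length correction, -0.12 with that correction without HFD_HDCA 2. Cox6b1 (0.27) was -0.016 with the length correction, -0.0065 with that correction without HFD_HDCA 2. Cox8a (0.18) was -0.10 with the length correction, -0.22 with that correction without HFD_HDCA 2. Cyc1 (-0.044) was -0.089 to 0.031 over single left-out libraries. Ndufa4l2 (0.21) was -0.037 to 0.45 over single left-out libraries, -0.13 with the length correction without HFD_HDCA 2. Sdhc (-0.043) was -0.077 to 0.0065 over single left-out libraries, 0.030 with the length correction without HFD_HDCA 2. For HFD against ND, with the reported log2 fold change in parentheses: Sdhb (-0.012) was -0.052 to 0.044 over single left-out libraries, -0.057 without HFD 1 and HFD_HDCA 1, 0.095 with FPKM + 0.1 and with FPKM + 1 and with FPKM + 0.1 unfiltered. Sdhd (0.056) was -0.015 to 0.093 over single left-out libraries, -0.035 without HFD 1 and HFD_HDCA 1. For HFD_HDCA against ND, with the reported log2 fold change in parentheses: Atp5g1 (0.076) was -0.072 to 0.20 over single left-out libraries, -0.016 with library size alone, -0.072 without HFD 1 and HFD_HDCA 1. Atp5g2 (0.16) was -0.091 with the length correction, -0.12 with that correction without HFD_HDCA 2. Atp5g3 (0.17) was -0.084 with the length correction, -0.089 with that correction without HFD_HDCA 2. Cox6a1 (0.12) was -0.15 with the length correction, -0.21 with that correction without HFD_HDCA 2. Cox6b1 (0.15) was -0.0014 to 0.31 over single left-out libraries, -0.0010 without HFD 1 and HFD_HDCA 1, -0.13 with the length correction, -0.12 with that correction without HFD_HDCA 2. Cox8a (0.022) was -0.028 to 0.087 over single left-out libraries, -0.064 with library size alone, -0.00025 with DESeq2, -0.24 with the length correction, -0.35 with that correction without HFD_HDCA 2. Ndufa4l2 (-0.16) was -0.43 to 0.074 over single left-out libraries.

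With the replicate block, edgeR called 0 members in all 3 comparisons, with medians of 0.23, -0.03 and 0.20 for HFD_HDCA against HFD, HFD against ND and HFD_HDCA against ND, and the block changed no call. With 3 libraries in a group, 1 library can decide a call, and depth limits genes with few reads, such as the low isoforms of complex IV and Ndufa4l2, with 12 to 31 reads in a library.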
